A study of Mus musculus with 12 samples.

Results

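The genes described here encode the transcription factors that direct blood progenitors to granulocyte and monocyte fates. They are the C/EBP family (Cebpa, Cebpb, Cebpd, Cebpe and Cebpg), PU.1 (Spi1), the repressor Gfi1, the interferon regulatory factors Irf8 and Irf4, and Myb. They were taken as every probe set annotated with 1 gene symbol equal to 1 of these 10 names. That found 17 probe sets of 9 genes among the 45101 probe sets on the array; Cebpe was not analysed here. A gene was tested if a probe set of it averaged above 5.10 log2 units, the 40th percentile of all probe sets, and it was read from its brightest probe set. Of the 9 genes, 8 passed and were tested among 12912 genes in all, and Irf4, below that level, is given as values alone.

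RNA came from primitive blood progenitors of normal mouse bone marrow, sorted as lineage-negative cells with c-Kit and Sca-1 and without FLT3, each profiled on 1 Affymetrix array. Every culture had 10% serum, 50 ng/ml stem cell factor and 5 ng/ml interleukin 6. Cells were cultured for 24 h before the virus, exposed to it for 4 h and cultured for 20 h more. All cells carried a retrovirus and were sorted for its green fluorescent protein 24 h after transduction. INV16 arrays (4, replicates 1 to 4) came from cells with a retrovirus encoding INV16, the leukaemia fusion of the core binding factor subunit CBFB with the myosin heavy chain MYH11. ACD mutant arrays (3, replicates 1 to 3) came from cells given that fusion without its assembly competent domain, a form described as unable to cause leukaemia. MIB control arrays (5, replicates 3 to 7) came from cells given the empty vector. The fusion was thus driven by a virus and read within a day, beside the cells' own Cbfb alleles, and each replicate was a separate sort and transduction. INV16 replicate 4 is left out of the tests, which rest on 11 arrays, and counts only in the 12-array average that sets which genes and probe sets are read. The 8 tested genes also pass when that average is taken over the 11 arrays.

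C/EBP proteins are basic leucine zipper factors that bind DNA as pairs. C/EBPα, together with the ETS factor PU.1, opens the granulocyte-monocyte programme in early progenitors, and C/EBPε and C/EBPβ act later or under stress. IRF8 favours monocytes and dendritic cells, GFI1 represses monocyte genes in favour of granulocytes, and MYB keeps progenitors dividing. CBFB, the gene joined in the fusion, encodes the partner of RUNX proteins, which also act in this network.

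The 250 bases before the start of Cebpa, of 1 of the 2 Irf8 starts and of 1 of the 2 Gfi1 starts in the table are shown because Cebpa and Irf8 carry the differences that passed a test and Gfi1 lay the other way from both. They are RefSeq sequence of build GRCm38.p6, written 5′ to 3′ on the strand of the gene. Capitals mark the letters matched. In Cebpa they mark a TATA box (TATAAA) 30 bases before the start. In Irf8 they mark, from left to right, a pair of GAS letters (TTCNNNGAA, the pattern bound by STAT proteins) at 171 and 153 bases, a CCAAT box (read as ATTGG) at 121 bases and a TATA box at 31 bases. In Gfi1 they mark the C/EBP pattern TTGCNNAA at 143 bases.
Cebpa, chr7:35119043-35119292, plus strand: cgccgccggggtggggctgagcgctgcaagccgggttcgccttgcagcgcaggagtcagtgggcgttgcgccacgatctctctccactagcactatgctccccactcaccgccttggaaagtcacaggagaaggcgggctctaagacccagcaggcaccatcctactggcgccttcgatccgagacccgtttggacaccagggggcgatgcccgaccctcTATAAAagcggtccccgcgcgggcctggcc
Irf8, chr8:120736108-120736357, plus strand: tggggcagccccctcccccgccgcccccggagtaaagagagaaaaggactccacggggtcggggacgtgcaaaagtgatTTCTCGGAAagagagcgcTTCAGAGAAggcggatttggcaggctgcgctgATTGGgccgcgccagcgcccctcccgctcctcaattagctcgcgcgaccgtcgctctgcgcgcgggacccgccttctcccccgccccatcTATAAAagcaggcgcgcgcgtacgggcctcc
Gfi1, chr5:107725806-107726055, minus strand: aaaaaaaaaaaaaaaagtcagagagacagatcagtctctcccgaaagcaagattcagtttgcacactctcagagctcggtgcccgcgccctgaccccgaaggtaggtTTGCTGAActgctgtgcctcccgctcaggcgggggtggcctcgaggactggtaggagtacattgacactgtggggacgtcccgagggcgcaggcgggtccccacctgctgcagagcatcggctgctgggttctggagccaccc

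Both strands of 9 promoters of 7 members in the RefSeq table were searched, and the same letters were counted in all 32851 promoters of that table. The other Irf8 start (chr8:120738389-120738638, plus strand) and the other Gfi1 start held none of the patterns. The GAS letters were in the Irf8 promoter shown, alone of these 9, and in 7.02% of all promoters. The C/EBP pattern was in the Gfi1 promoter shown and in 9.56% of all. TATA boxes stood in Cebpa, Irf4 and the Irf8 promoter shown, against 12.4% of all, and CCAAT boxes in Cebpg and that Irf8 promoter, against 33.8%. The RUNX pattern TGTGGT, in 14% of all promoters, and the PU.1 pattern AGGAAGT, in 7.69%, were in none of these 9 windows. A match in these windows is a match of letters.

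The arrays fall into sets by their spike-ins, which are bacterial transcripts added to every sample. BioC stood above BioB by 1.07 to 1.21 log2 units on INV16 replicates 1 to 3 and MIB control replicates 3 to 5, here called set A. The gap was -0.11 to 0.07 on INV16 replicate 4, the ACD mutant arrays and MIB control replicates 6 and 7, set B. INV16 and ACD mutant therefore share no set once INV16 replicate 4 is apart, and for that pair the set and the group cannot be told apart. The median signal of an array was 5.62 to 5.79 log2 units. The precision of each value is limited by how few arrays a group had. On the 11 arrays of the fit the sort marker Kit measured 10.26 to 11.43 and the progenitor marker Cd34 11.15 to 12.35 log2 units, and Ly6a (Sca-1) was not analysed here. Flt3 RNA was measured at 8.03 to 9.76 on those arrays although the cells were sorted without the protein. In such bulk RNA, fewer cells of a type and less RNA per cell cannot be told apart.

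Cebpa was lower with INV16 than with the empty vector. C/EBPα is needed for granulocyte-monocyte progenitors to form. Its probe set 1418982_at measured 8.47, 8.49 and 8.69 log2 units on INV16 replicates 1 to 3, 9.82, 9.61 and 8.93 on ACD mutant replicates 1 to 3, and 9.52, 9.22, 9.01, 9.84 and 9.68 on MIB control replicates 3 to 7. Every INV16 array lay below every array of both other groups, and the ACD mutant and MIB control arrays overlapped. INV16 averaged 8.55 ± 0.12 (SD, n = 3) and MIB control 9.45 ± 0.34 (SD, n = 5), a log2 difference of -0.91 (SE 0.21, 95% interval -1.36 to -0.46), or 1.88-fold lower, with a limma adjusted p = 0.0477. ACD mutant averaged 9.45 ± 0.46 (SD, n = 3), a difference from MIB control of 0.00 (SE 0.21, 95% interval -0.45 to 0.45, adjusted p = 0.999). INV16 differed from the ACD mutant by -0.91 as well (SE 0.23, 95% interval -1.41 to -0.40), which missed the threshold (adjusted p = 0.0602). The fall against MIB control stood close to the threshold. With all 12 arrays it was -1.58 (adjusted p = 0.269), and within set A, where 3 arrays of each group share the spike-in difference, it was -0.70 (SE 0.15, adjusted p = 0.108). Within set B the ACD mutant stood at -0.30 against MIB control (SE 0.24, adjusted p = 0.520). The fall kept its sign in all 11 fits that each left out 1 array, between -1.02 and -0.81, and passed the test in 3 of them, those without ACD mutant replicate 3, MIB control replicate 4 or MIB control replicate 5. In the other 8 its adjusted p reached 0.214, without INV16 replicate 1. The difference from the ACD mutant passed without ACD mutant replicate 3 (-1.17, adjusted p = 0.0351, where 0.883% of all genes were called) and without MIB control replicate 7 (-0.91, adjusted p = 0.0498, where 3.91% were called). In the other 9 fits that left out 1 array its adjusted p reached 0.224. With the spike-in set as a block the difference of INV16 from the ACD mutant was -0.40 and did not pass. For this pair the set and the group cannot be told apart.

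**Figure D1:**
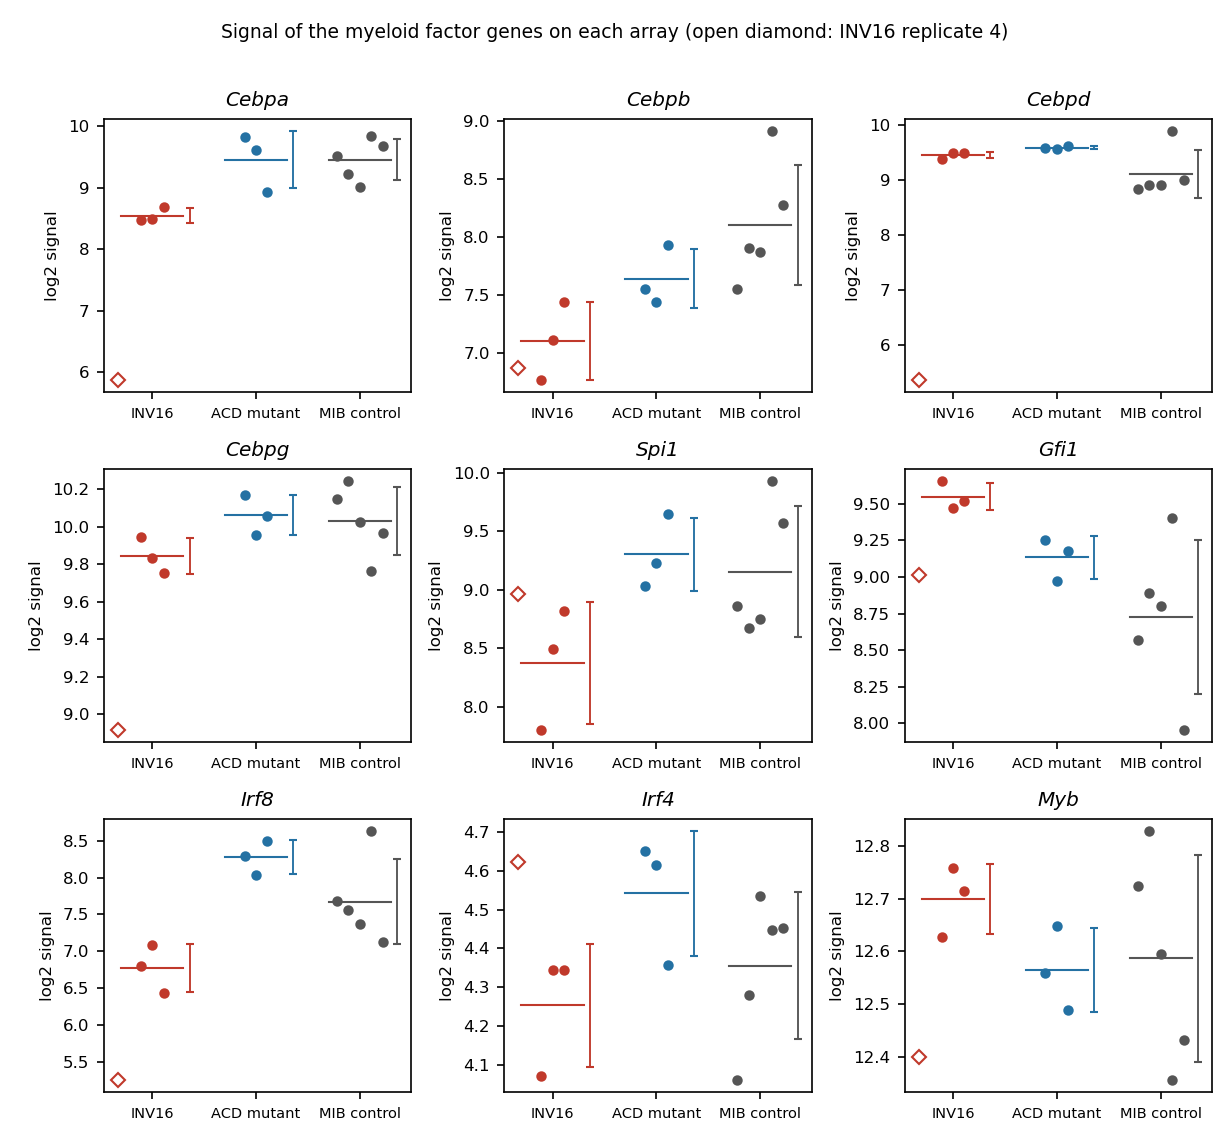
Log2 signal of the brightest probe set of each of the 9 genes on every array, in the order INV16, ACD mutant and MIB control. Filled points are the arrays of the fit, horizontal lines their means, side bars the SD, and the open diamond INV16 replicate 4; the vertical scale differs between panels. For Cebpa and Irf8 the 3 filled INV16 points lie below every point of both other groups.

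Cebpb encodes the C/EBP protein used in stress-driven granulocyte production and in macrophages. It measured 6.77, 7.11 and 7.44 on INV16 replicates 1 to 3, 7.55, 7.44 and 7.93 on the ACD mutant arrays, and 7.55, 7.91, 7.87, 8.92 and 8.28 on MIB control replicates 3 to 7. The INV16 arrays were the lowest of the 11, with a gap to the ACD mutant too small to show at 2 decimals. The difference of INV16 from MIB control was -1.0 (SE 0.26, 95% interval -1.55 to -0.45), at least as large as that of Cebpa, but with a wider spread among the controls (SD 0.52, n = 5) and an adjusted p = 0.0776. Without MIB control replicate 3 it was -1.14 and passed (adjusted p = 0.0355), where 2.15% of all genes were called. Within set A it was -0.67 (adjusted p = 0.181). The ACD mutant differed from MIB control by -0.46 (adjusted p = 0.355), and by -0.95 within set B (adjusted p = 0.0789). INV16 differed from the ACD mutant by -0.54 (adjusted p = 0.332). The second Cebpb probe set lay below the filter and gave -0.47 for INV16 against MIB control, with overlapping arrays.

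Cebpd encodes the C/EBP protein of acute inflammatory responses. It measured 9.39, 9.49 and 9.49 on INV16 replicates 1 to 3, 9.58, 9.56 and 9.62 on the ACD mutant arrays, and 8.84, 8.91, 8.91, 9.89 and 9.01 on MIB control replicates 3 to 7. Among the 11 arrays of the fit, those with either form of the fusion lay above 4 of the 5 MIB control arrays and below the other, replicate 6. INV16 differed from MIB control by 0.35 (SE 0.20, adjusted p = 0.425) and the ACD mutant by 0.48 (SE 0.20, adjusted p = 0.196). Leaving out MIB control replicate 6 gave 0.54 for INV16 (adjusted p = 0.0201) and 0.67 for the ACD mutant (adjusted p = 0.0124), past the threshold for both, where 1.12% and 1.73% of all genes were called. Within set A INV16 differed by 0.57 (SE 0.11, adjusted p = 0.0810), and within set B, which holds that replicate, the ACD mutant differed by 0.14 (adjusted p = 0.785). INV16 and the ACD mutant differed by -0.13 (95% interval -0.60 to 0.34, adjusted p = 0.792). The dimmer Cebpd probe set gave 0.16 for INV16 and 0.21 for the ACD mutant against MIB control (adjusted p = 0.559 and 0.344).

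Cebpg encodes the family member best known as a pairing partner for the others. It measured 9.95, 9.83 and 9.75 on INV16 replicates 1 to 3, 10.17, 9.96 and 10.06 on the ACD mutant arrays, and 10.15, 10.24, 10.03, 9.76 and 9.97 on MIB control replicates 3 to 7. INV16 overlapped MIB control and lay just below the ACD mutant. Its differences were small: -0.19 for INV16 against MIB control (95% interval -0.44 to 0.06, adjusted p = 0.472), 0.03 for the ACD mutant against MIB control (95% interval -0.22 to 0.28, adjusted p = 0.928) and -0.22 for INV16 against the ACD mutant (adjusted p = 0.390). The other Cebpg probe sets gave -0.12 and 0.03 for INV16 against MIB control. For INV16 against the ACD mutant they gave -0.07 and 0.16, with overlapping arrays on each. Of the family, then, Cebpa alone passed the test on the 11 arrays, and its paralogs were not tested for a difference from it.

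Spi1 encodes PU.1, which works with C/EBPα in early progenitors and at high level drives macrophage genes. It measured 7.80, 8.50 and 8.82 on INV16 replicates 1 to 3, 9.03, 9.23 and 9.65 on the ACD mutant arrays, and 8.86, 8.67, 8.75, 9.93 and 9.57 on MIB control replicates 3 to 7. The INV16 arrays lay below the ACD mutant arrays and overlapped the lower MIB control arrays. INV16 differed from MIB control by -0.78 (SE 0.30, adjusted p = 0.220), the ACD mutant from MIB control by 0.15 (SE 0.30, 95% interval -0.49 to 0.79, adjusted p = 0.852), and INV16 from the ACD mutant by -0.93 (SE 0.33, adjusted p = 0.149). The Spi1 values of the controls split by spike-in set, with 8.67 to 8.86 in set A and 9.57 and 9.93 in set B. Within set A the INV16 difference was -0.39 (SE 0.23, adjusted p = 0.517), and within set B the ACD mutant stood at -0.44 (SE 0.19, adjusted p = 0.247). With the set as a block INV16 and the ACD mutant differed by 0.06 (SE 0.34, adjusted p = 0.966).

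Irf8 was lower with INV16 than with the ACD mutant. IRF8 supports monocyte and dendritic cell development and limits granulocyte output. Probe set 1416714_at measured 6.80, 7.08 and 6.44 on INV16 replicates 1 to 3, 8.29, 8.04 and 8.49 on the ACD mutant arrays, and 7.69, 7.55, 7.38, 8.62 and 7.12 on MIB control replicates 3 to 7. Every INV16 array was below every other array, and the ACD mutant arrays were above all MIB control arrays but replicate 6. INV16 averaged 6.77 ± 0.32 and the ACD mutant 8.27 ± 0.23 (SD, n = 3 each), a log2 difference of -1.50 (SE 0.30, 95% interval -2.15 to -0.85), or 2.83-fold lower, with a limma adjusted p = 0.0259. INV16 differed from MIB control by -0.90 (SE 0.27, 95% interval -1.48 to -0.32, adjusted p = 0.125), and by -0.77 within set A (SE 0.17, adjusted p = 0.125). The ACD mutant differed from MIB control by 0.60 (SE 0.27, 95% interval 0.02 to 1.18, adjusted p = 0.239), and by 0.40 within set B (adjusted p = 0.597). Without MIB control replicate 6 that difference was 0.84 and passed (adjusted p = 0.0418).

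The fall of Irf8 against the ACD mutant cannot be told apart from the spike-in sets. With the set as a block, which rests on MIB control being in both, it was -1.17 (SE 0.45, adjusted p = 0.354), and with all 12 arrays -1.88 (adjusted p = 0.151). It passed in 5 of the 11 fits that left out 1 array, and did not pass when any 1 INV16 or ACD mutant array was left out (adjusted p 0.0597 to 0.0918). A sign of RNA quality also separated these groups: the signal of the 3′ Gapdh control probe set minus that of the 5′ one was 1.10 to 1.53 log2 units on INV16 replicates 1 to 3, against 1.63 to 3.17 on the ACD mutant arrays. Without ACD mutant replicate 1, which had the 3.17, the difference of Irf8 was -1.49 (adjusted p = 0.0918). The part of RNA quality in it was otherwise not tested. The second Irf8 probe set, 1448452_at, gave 6.01, 6.38 and 6.25 on INV16 replicates 1 to 3, 7.25, 6.86 and 7.42 on the ACD mutant arrays, and 6.66, 6.01, 6.51, 7.51 and 6.17 on MIB control replicates 3 to 7. Its INV16 arrays were again below all ACD mutant arrays but overlapped MIB control. Tested among 22683 probe sets, it differed by -0.96 between INV16 and the ACD mutant (adjusted p = 0.126) and by -0.35 between INV16 and MIB control (adjusted p = 0.598), and the first Irf8 set kept an adjusted p = 0.0352 against the ACD mutant.

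Irf4, the close relative of Irf8 that acts in lymphoid and dendritic cells, was dim on every array. Its brighter probe set measured 4.07, 4.35 and 4.34 on INV16 replicates 1 to 3, 4.65, 4.62 and 4.36 on the ACD mutant arrays, and 4.06, 4.28, 4.54, 4.45 and 4.45 on MIB control replicates 3 to 7. With INV16 replicate 4 apart, the lowest ACD mutant array was barely above the highest INV16 array, and the ACD mutant overlapped MIB control. Both Irf4 probe sets were below the filter, so no level in these cells is read from them.

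Gfi1 lay the other way. GFI1 is a zinc finger repressor needed for neutrophil development. Probe set 1417679_at measured 9.66, 9.47 and 9.52 on INV16 replicates 1 to 3, 9.25, 8.97 and 9.18 on the ACD mutant arrays, and 8.57, 8.89, 8.80, 9.40 and 7.95 on MIB control replicates 3 to 7. Among the 11 arrays of the fit, every INV16 array was above every other array, and the ACD mutant arrays were above all MIB control arrays but replicate 6. INV16 replicate 4, at 9.01, was not. INV16 differed from MIB control by 0.83 (SE 0.23, 95% interval 0.32 to 1.33, adjusted p = 0.104), the ACD mutant by 0.41 (SE 0.23, adjusted p = 0.368), and INV16 from the ACD mutant by 0.42 (SE 0.26, adjusted p = 0.414). Without MIB control replicate 6 the difference of INV16 from MIB control was 1.0 and passed (adjusted p = 0.0278), and within set A it was 0.80 (SE 0.13, adjusted p = 0.0532). The ACD mutant differed by 0.46 within set B (SE 0.35, adjusted p = 0.516).

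Myb was bright and close to level. It measured 12.63, 12.76 and 12.71 on INV16 replicates 1 to 3, 12.56, 12.65 and 12.49 on the ACD mutant arrays, and 12.72, 12.83, 12.60, 12.36 and 12.43 on MIB control replicates 3 to 7. All groups overlapped. The differences were 0.11 for INV16 against MIB control (95% interval -0.14 to 0.36, adjusted p = 0.695), -0.02 for the ACD mutant against MIB control (95% interval -0.27 to 0.23, adjusted p = 0.948) and 0.13 for INV16 against the ACD mutant (95% interval -0.15 to 0.41, adjusted p = 0.621). The Myb probe sets did not all point one way: for INV16 against MIB control the other 2 gave -0.0034 and -0.26. For INV16 against the ACD mutant they gave 0.26 and -0.05. On the first of these, 1450194_a_at, every INV16 array of the fit lay above every ACD mutant array (limma adjusted p = 0.585 among 22683 probe sets). Signals near 13 log2 units are at the bright end of a scale that ended at 14.97.

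Counted over the 8 tested genes, INV16 against MIB control gave 1 fall (Cebpa) and 0 rises, against a background of 1.7% of the 12912 genes called (0.627% higher and 1.07% lower). At an unadjusted p under 0.05 it gave 5 of the 8, against 15.8% of all genes. Arrays of the groups did not overlap for 4 of the 8 (Cebpa, Cebpb and Irf8 below, Gfi1 above), against 9.26% of all genes (3.28% above and 5.99% below). The median difference of the 8 was -0.48, beside -0.03 for all genes.

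The ACD mutant against MIB control gave 0 calls among the 8, against 1.7% of all genes (0.984% higher and 0.713% lower) by limma. At an unadjusted p under 0.05 it gave 2 of the 8 (Cebpd and Irf8), against 19.5% of all genes. Arrays did not overlap for 0 of the 8, against 12.8% of all (6.92% above and 5.84% below). The median was 0.09, beside 0.01 for all genes.

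INV16 against the ACD mutant gave 1 fall (Irf8) and 0 rises, against 2.07% of all genes called (0.31% higher and 1.76% lower). At an unadjusted p under 0.05 it gave 3 of the 8 (Cebpa, Spi1 and Irf8), against 19% of all genes. Arrays did not overlap for 7 of the 8, with 6 below, Gfi1 above and Myb the exception, against 28.6% of all genes (9.45% above and 19.2% below). The median was -0.38, beside -0.02 for all genes. For this pair the spike-in set and the group cannot be told apart, and the gap between the groups was narrow for Cebpb, Cebpd and Cebpg. With the set as a block Cebpb, Cebpd, Spi1 and Myb changed sign, and Cebpa, Cebpg, Gfi1 and Irf8 did not. INV16 and ACD mutant were each set against the same 5 MIB control arrays, so the first 2 comparisons share their controls. With all 12 arrays 0 of the 8 were called by limma in any comparison. The background there was 0.155% of genes in INV16 against MIB control, 0% in the ACD mutant against MIB control and 0.0387% in INV16 against the ACD mutant. At an unadjusted p under 0.05 the shares with 12 arrays were 15.1%, 6.9% and 12.4% in that order, with 4, 0 and 3 of the 8 members.

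**Figure D2:**
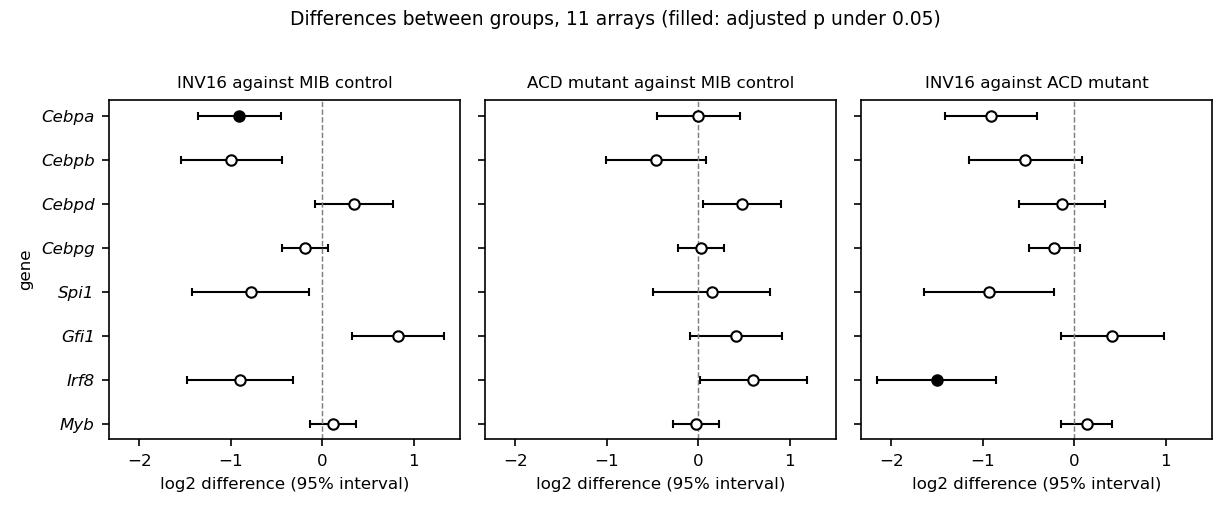
Log2 differences of the 8 tested genes in the 3 comparisons, from the limma fit to 11 arrays, with 95% intervals as bars. Filled points passed an adjusted p under 0.05: Cebpa at -0.91 in INV16 against MIB control and Irf8 at -1.50 in INV16 against the ACD mutant; for Gfi1 the point is right of 0 in all 3 panels.

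MIB control replicate 6 stood at an end of the controls for all 8 genes. It was the highest MIB control array for 6 of the 8 genes (Cebpa, Cebpb, Cebpd, Spi1, Gfi1 and Irf8) and the lowest for the other 2 (Cebpg and Myb). Of all genes, 19.9% were highest on that array. The share of all genes lowest on it, or at either end, was not counted. Mature cell genes were also high there. The mean of the late granule genes named further on was 7.27 on replicate 6 and 5.74 to 6.36 on the other 4 controls, and that of 8 mature macrophage and granulocyte markers was 7.47, against 6.41 to 6.93. The part of these cells in the member differences was not tested. Without MIB control replicates 6 and 7, which leaves the controls of set A, INV16 against MIB control had 2 rises (Cebpd 0.57, adjusted p = 0.0197, and Gfi1 0.80, adjusted p = 0.0131), with 1.08% of all genes called. Cebpa then stood at -0.70 and missed the threshold (adjusted p = 0.136). The ACD mutant against MIB control then had 2 rises (Cebpd 0.70, adjusted p = 0.00310, and Irf8 0.74, adjusted p = 0.0238), with 9.72% of all genes called. That fit sets ACD mutant arrays, all of set B, against controls of set A, so group and set cannot be told apart in it. Within set B the differences were 0.14 for Cebpd and 0.40 for Irf8, and neither passed. INV16 against the ACD mutant had 3 falls (Cebpa, adjusted p = 0.0265, Irf8, adjusted p = 0.00124, and Spi1, adjusted p = 0.0346), with 6.32% of all genes called. This choice was made after the data were seen.

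The genes these factors work with or switch on were read from 4 lists of 84 symbols. Over all 12912 genes, limma called 1.7%, 1.7% and 2.07%, and 15.8%, 19.5% and 19% had an unadjusted p under 0.05. The medians over all genes were -0.03, 0.01 and -0.02. The order is INV16 against MIB control, ACD mutant against MIB control and INV16 against ACD mutant. The share of all genes above or below 0 was not counted. Of 30 partners and antagonists of C/EBP, PU.1, IRF8 and MYB, 27 were tested and 0 passed by limma in INV16 against MIB control (10 at an unadjusted p under 0.05), with a median of 0.09. In the ACD mutant against MIB control 2 rose and 0 fell. They were Dbp, a basic leucine zipper factor of the circadian clock, which averaged 8.24 ± 0.22 (SD, n = 3) in the ACD mutant and 7.51 ± 0.28 (SD, n = 5) in MIB control (difference 0.73, adjusted p = 0.0460), and Jund, a Jun family member (0.61, adjusted p = 0.0460). In INV16 against the ACD mutant 1 of the 27, Jund, fell (-0.76, adjusted p = 0.0261). These calls rested on few arrays: leaving out 1 at a time kept Dbp in 3 of 11 fits, the rise of Jund in 4 and its fall in 7, and all were lost without ACD mutant replicate 1 (adjusted p = 0.216 and 0.191 for the rises and 0.0918 for the fall) or 2. Within set B Dbp stood at 0.48 (adjusted p = 0.173) and Jund at 0.37 (adjusted p = 0.166). Runx1, the DNA-binding partner of CBFB, did not pass in any comparison: it stood at 0.30 in INV16 against MIB control, 1.03 in the ACD mutant against MIB control and -0.73 in INV16 against the ACD mutant (adjusted p = 0.736, 0.128 and 0.338).

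The 20 early granulocyte-monocyte targets of C/EBPα, PU.1 and MYB were all tested. In INV16 against MIB control 2 fell and 0 rose, with a median of -0.09. Nkg7, a membrane protein of cytotoxic granules, averaged 9.95 ± 0.08 in INV16, against 10.68 ± 0.24 in MIB control (SD, n = 3 and n = 5; -0.73, adjusted p = 0.0150), and the survival gene Bcl2 differed by -0.70 (adjusted p = 0.0252). Both were lost without INV16 replicate 1 (adjusted p = 0.0709 and 0.102) or 2 (0.0705 and 0.117), and Bcl2 also without MIB control replicate 5 (0.0634). Nkg7 was lower in the ACD mutant too, by -0.56 against MIB control, just short of the threshold (adjusted p = 0.0507). Between INV16 and the ACD mutant it differed by -0.17 (adjusted p = 0.573). In the ACD mutant against MIB control 1 rose, the sialic acid-binding receptor Cd33 (0.73, adjusted p = 0.0327), and 1 fell, the kinase gene Pim1 (-0.82, adjusted p = 0.0366). Both were lost without ACD mutant replicate 1 (adjusted p = 0.136 and 0.176), ACD mutant replicate 2 (0.183 and 0.168) or MIB control replicate 5 (0.0733 and 0.0728), and Pim1 also without ACD mutant replicate 3 (0.0631). In INV16 against the ACD mutant 0 of 20 passed, where 4 had an unadjusted p under 0.05 (against 19% of all genes), and the median was -0.18.

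Of 14 late granule genes known as C/EBPε targets, 11 were tested. S100a8, a calcium-binding protein of neutrophils, was the only one of these called in INV16 against MIB control. It averaged 5.27 ± 0.23 in INV16, against 8.35 ± 1.30 in MIB control (SD, n = 3 and n = 5), a log2 difference of -3.08 (adjusted p = 0.0144). On the INV16 arrays it measured 5.03 to 5.48, about the 5.10 level of the filter, so its level there is only bounded and the size of the fall is uncertain. It reached 10.28 on 1 control array, replicate 6, and without that array the difference was -2.59 (adjusted p = 0.00659). It was lost without INV16 replicate 1 (-2.96, adjusted p = 0.101) or 2 (-3.09, adjusted p = 0.0619), and within set A it was -2.77 (adjusted p = 0.0328). The list had 0 calls in the ACD mutant against MIB control, where 4 of 11 had an unadjusted p under 0.05, against 19.5% of all genes. In INV16 against the ACD mutant 1 fell, Padi4, which converts arginine to citrulline on histones (-0.77, adjusted p = 0.0451). This call was lost without INV16 replicate 1 or 2, any ACD mutant array or MIB control replicate 5 (adjusted p up to 0.196). Without ACD mutant replicate 1, the array with the highest Gapdh 3′ minus 5′ difference of the 11, Padi4 stood at -0.78. The list medians were -0.33, -0.25 and -0.24, in the order INV16 against MIB control, ACD mutant against MIB control and INV16 against ACD mutant.

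Of 20 monocyte and macrophage targets of PU.1 and IRF8, 17 were tested. In INV16 against MIB control 0 passed (4 at an unadjusted p under 0.05, against 15.8% of all genes). There 12 of 17 were below 0, with a median of -0.24, beside -0.03 for all genes. In the ACD mutant against MIB control 0 passed (3 unadjusted, against 19.5% of all genes). There 15 of 17 were above 0, with a median of 0.35, beside 0.01 for all genes. In INV16 against the ACD mutant 1 fell, with 15 of 17 below 0 and a median of -0.38, beside -0.02 for all genes. It was Lyz1, a lysozyme whose probe sets may also take signal from its near copy Lyz2, which averaged 11.64 ± 0.35 in INV16 and 12.97 ± 0.14 in the ACD mutant (SD, n = 3 each; -1.33, adjusted p = 0.0304). It was lost without INV16 replicate 1 or 2 or any ACD mutant array (adjusted p up to 0.135). Without ACD mutant replicate 1 Lyz1 stood at -1.40, the Gapdh 3′ minus 5′ difference again separating these groups, and with the set as a block it was -0.74 (adjusted p = 0.464). The mean of the list was 7.41 to 7.68 on INV16 replicates 1 to 3, 7.92 to 8.06 on the ACD mutant arrays and 7.44 to 8.19 on MIB control arrays. The INV16 and ACD mutant ranges did not meet, and MIB control, with replicate 6 at its top, overlapped both.

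**Figure D3:**
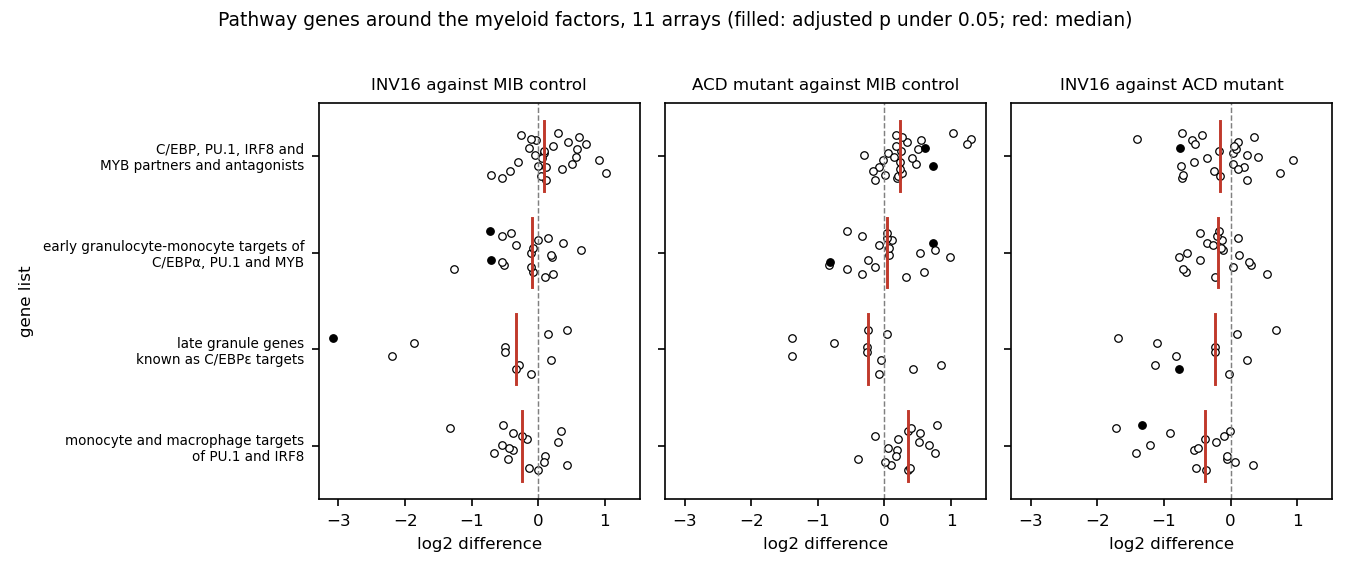
Log2 differences of the tested genes of 4 pathway lists in the 3 comparisons on 11 arrays, 1 point a gene (vertical scatter only separates points), with the list median as a red line. Filled points passed an adjusted p under 0.05; the lowest is S100a8 at -3.08 in INV16 against MIB control, and most monocyte and macrophage targets lie right of 0 in the middle panel and left of 0 in the right one.

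Markers of other cell types moved with some of these comparisons. The means given here are over all genes of a list named on the array. Megakaryocyte genes (5 of 7 tested) had list means of 7.20 to 7.43 on INV16 replicates 1 to 3, 8.55 to 8.94 on the ACD mutant arrays and 7.19 to 9.38 on MIB control arrays, the highest being replicate 7. Of these, 1 fell in INV16 against the ACD mutant, Vwf (-2.23, adjusted p = 0.0485). Of 12 mast cell and basophil genes, 11 were tested, but 3 of them (Fcer1a, Cma1 and Il4) passed the filter only through INV16 replicate 4 and were below it on the 11 arrays. The list had means of 7.43 to 7.52, 7.84 to 7.92 and 7.34 to 7.95 in the same group order, with 2 falls among the other 8 genes in INV16 against the ACD mutant (Cpa3 -1.45 and Ms4a2 -2.01) and 1 rise in the ACD mutant against MIB control (Hdc 1.56). B and T lymphoid genes (6 of 10 tested) had means of 5.76 to 5.96, 5.54 to 5.69 and 5.36 to 5.55, with 1 rise in INV16 against MIB control (Dntt 3.04, adjusted p = 0.0227). Erythroid genes (3 of 9 tested) had 0 calls by limma in each comparison (0, 2 and 3 at an unadjusted p under 0.05 in INV16 against MIB control, ACD mutant against MIB control and INV16 against ACD mutant) and list means of 5.84 to 6.00, 6.17 to 6.41 and 5.51 to 6.43. Mature macrophage and granulocyte genes (5 of 9 tested) had means of 6.34 to 6.80, 6.83 to 6.91 and 6.41 to 7.47, with 1 fall in INV16 against MIB control, again S100a8. Of the sort markers (6 of 7 tested), Procr rose in INV16 against MIB control (1.48, adjusted p = 0.0252) and Slamf1 in the ACD mutant against MIB control (adjusted p = 0.0378). The part of other cells in the differences of Cebpa and Irf8 was not tested.

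INV16 replicate 4 departed from the other 11 arrays. It correlated with them at 0.895 to 0.917 across probe sets, against 0.985 to 0.996 among the others, and 73.1% of the 12912 genes lay outside the range of the other 11 on it. Cebpa measured 5.87 there (a difference of -2.67 from the mean of the other INV16 arrays), Cebpd 5.37, Cebpg 8.92 and Irf8 5.26, each below all 11 other arrays. Cebpb (6.87), Spi1 (8.96), Gfi1 (9.01), Irf4 (4.62) and Myb (12.40) lay within the range of the others. Mast cell and basophil genes averaged 10.79 on that array, against 7.34 to 7.95 on the other 11, and the early granulocyte-monocyte targets 8.30, against 9.92 to 10.64. The Gapdh 3′ minus 5′ difference, a sign of RNA quality, was 3.64 on it, against 1.10 to 1.53 on the other INV16 arrays, 1.63 to 3.17 on the ACD mutant arrays and 1.34 to 1.76 on the MIB control arrays.

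**Figure D4:**
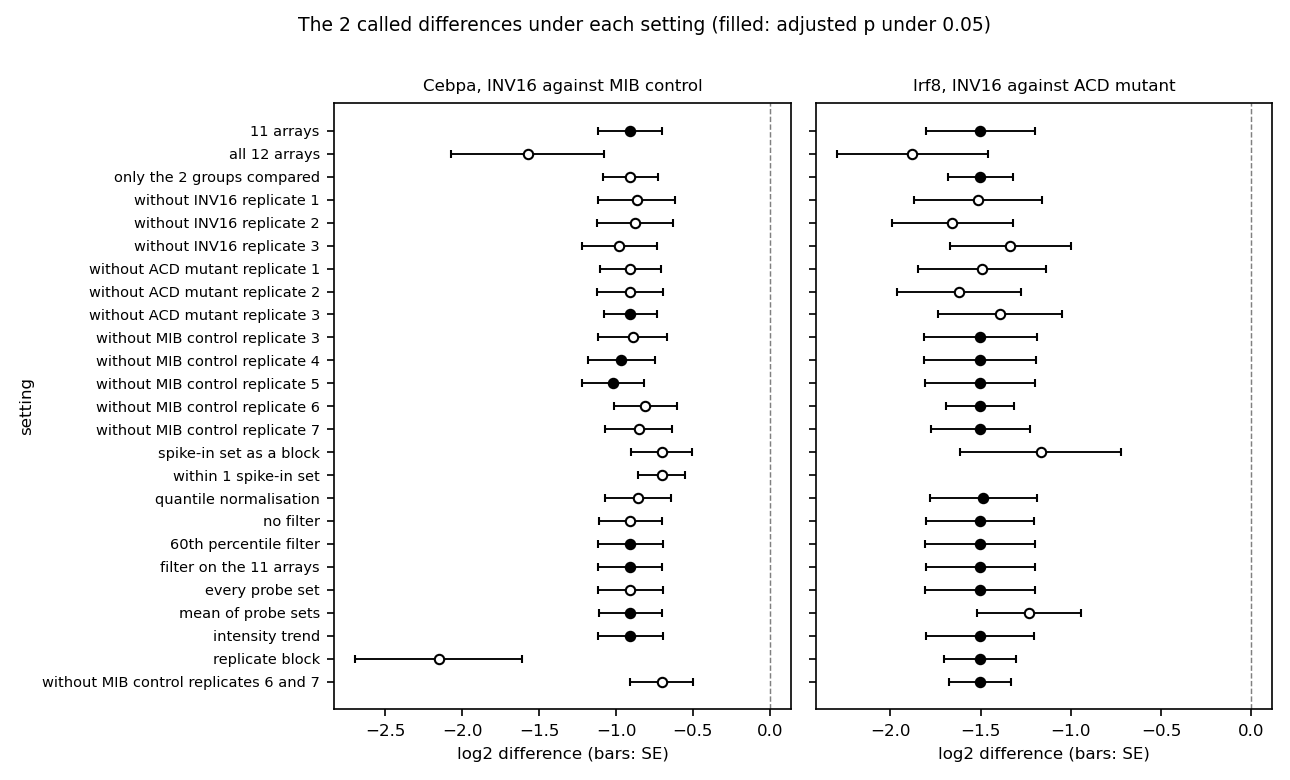
The 2 called differences under every setting tried, Cebpa in INV16 against MIB control (left) and Irf8 in INV16 against the ACD mutant (right), with the SE as bars; filled points passed an adjusted p under 0.05. All points lie left of 0, and many are open: with all 12 arrays the values are -1.58 and -1.88 and neither passes.

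The genes most like Cebpa and Irf8 over the 11 arrays were found by Pearson's r of log2 values among all other tested genes, a description of arrays that share groups and spike-in sets. For Cebpa they were Vsir, an immune checkpoint receptor gene (r = 0.93), Szrd1 (0.92) and Cibar1 (0.92). Of these, Vsir was called lower in INV16 against MIB control (-0.57, adjusted p = 0.0344). For Irf8 they were the formyl peptide receptor gene Fpr2 (r = 0.92), Iffo2 (0.92) and Gatad2a (0.91). Gatad2a was called lower in INV16 against the ACD mutant (-0.75, adjusted p = 0.0193). These genes were picked for their likeness to Cebpa or Irf8 on the same 11 arrays, so their calls are no separate support for either.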

How the data were processed

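RNA of 12 samples was measured on 1 Affymetrix mouse array each, after 2 rounds of amplification per the labels' protocols. Values are as deposited: the authors deposited 1 log2 signal per probe set and array, log2 being inferred from their range. Background correction, normalisation and summarisation are not given in the sources used here. Arrays were grouped by title.

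Of 45101 probe sets, 34945 had 1 symbol in the platform annotation, 932 several and 9211 none, and 13 were array controls with a symbol; all but the first kind were left out. Probe sets averaging over all 12 arrays above the 40th percentile (5.10) were kept, and the brightest stood for its gene, giving 12912 genes. A limma model (version 3.58.1, R 4.3.3) with 3 group means was fitted to 11 arrays (8 residual and 5.04 prior degrees of freedom), two-sided, with Benjamini-Hochberg adjustment over all genes; calls were made at an adjusted p under 0.05. It was also run on simulated arrays with no spike-in sets or outlying array and with larger shifts than those of Cebpa and Irf8. That run does not test these calls. The p-values measure the spread between separate sorts and transductions, which among the controls also takes in the difference between the spike-in sets. For INV16 against the ACD mutant the set difference lies within the group difference.

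The members and lists were chosen with earlier results of these data known. Named genes are all members, up to 4 called genes of each list, and the 3 genes most correlated with a called member; Runx1 and the marker genes were added after their values were seen. Symbols Emr1 and Chi3l3 were read as Adgre1 and Chil3 through RefSeq. Alternatives changed the arrays, filter, probe sets, scaling, moderation and blocks.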

Additional observations from a re-analysis of the deposited data

Results flagged for a closer look

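Chance marks about 1 in 20 such groups, and 18 groups of 4 or 5 arrays were examined (9 genes in INV16 with replicate 4 and in MIB control), of which 3 had an array standing apart by its gap to the nearest other. The genes were read on the same arrays, and INV16 replicate 4 had been set apart beforehand. The 18 groups are therefore not independent, and the share of 1 in 20 is no yardstick for them. Cebpa measured 5.87 on INV16 replicate 4, the lowest of the 4 INV16 arrays, against 8.47 to 8.69 on the other 3. Cebpd measured 5.37 on INV16 replicate 4, against 9.39 to 9.49 on the other 3. Cebpd also measured 9.89 on MIB control replicate 6, the highest of the 5 controls, against 8.84 to 9.01 on the other 4, and the differences of Cebpd passed the test without that array.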

How the results depend on the processing

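In INV16 against MIB control, 1 of the 8 tested members was called and 219 genes in all. Leaving out 1 array at a time gave 0 to 2 members and 29 to 332 genes. No member was called with all 12 arrays (20 genes), with only the 2 groups compared (93 genes), within set A (30 genes), with the replicate block on 12 arrays (0 genes), with the spike-in set as a block, with quantile normalisation, with no filter or with every probe set as its own feature; these gave 0 members. Without MIB control replicates 6 and 7 there were 2 members and 139 genes. Signs turned for Cebpd with 12 arrays (-0.67) and with the replicate block (-1.25), for Spi1 with that block (0.0819), and for Myb with that block (-0.22), with the set as a block, within set A or without MIB control replicates 6 and 7 (-0.0163 each) and with the mean of probe sets (-0.0493).

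In the ACD mutant against MIB control, 0 members and 219 genes were called; leaving out 1 array gave 0 to 2 members and 3 to 589 genes. Genes numbered 0 with 12 arrays, 72 with only the 2 groups, 20 with the set as a block, 42 within set B, 382 with every probe set, and 1255 with 2 members without MIB control replicates 6 and 7. In that last fit the group and the spike-in set cannot be told apart. Differences near 0 changed sign. With the set as a block or within set B Cebpa was -0.30, Spi1 -0.44 and Myb 0.17. Leaving out 1 array gave Cebpa -0.18 to 0.26, Cebpg -0.0358 to 0.0837, Spi1 -0.0230 to 0.34 and Myb -0.0800 to 0.0381. Sign changes were those without ACD mutant replicate 1 (Cebpa, Cebpg), 2 (Cebpa) and 3 (Spi1, Myb) and MIB control replicates 3 (Myb), 4 (Cebpa, Myb), 5 (Cebpa) and 6 (Cebpg). Cebpa was -0.00482 after quantile normalisation, and Cebpg was -0.0477 with the mean of probe sets and -0.0787 without MIB control replicates 6 and 7.

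In INV16 against the ACD mutant, 1 member and 267 genes were called; leaving out 1 array gave 0 to 2 members and 36 to 505 genes. With 12 arrays there were 0 members and 5 genes, with only the 2 groups 2 members and 841 genes, with the set as a block 0 members and 0 genes, with the mean of probe sets 0 members and 173 genes, and without MIB control replicates 6 and 7 there were 3 members and 816 genes. The set block turned Cebpb (0.29), Cebpd (0.43), Spi1 (0.0553) and Myb (-0.19), and 12 arrays turned Jund (0.0246). No within-set fit exists for this pair. The causes were not tested.

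The replicate block gave 2 members (Irf8, and Spi1 at -0.93, adjusted p = 0.0183) for INV16 against the ACD mutant. Arrays of the same number deviated together little or not at all (correlations -0.16, -0.18 and -0.31 there). The correlation was -0.33 between INV16 and MIB control replicate 3, and 0.09 between ACD mutant and MIB control replicate 3. The main fit therefore did not pair arrays by number, though so few correlations cannot exclude that the numbers pair them. No paired analysis was possible for the ACD mutant against MIB control because they share 1 number. Of the values tracked, those keeping sign and side of the threshold numbered 218 of 264, 214 of 276 and 207 of 253, in the order of these paragraphs. With 12 arrays 0 list genes were called.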
